A study of Mus musculus with 4 samples.

Results

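The genes of the Myc, Max and Mxd network were taken by name from the feature tables, and all 10 listed members (Mycn, Myc, Mycl, Max, Mxd1, Mxd3, Mxd4, Mxi1, Mnt and Mlx) were found among 32286 features. Their unique molecular identifiers (UMIs, each standing for 1 captured transcript) were summed per library and per cell state in single-cell RNA-seq of mouse tumour tissue labelled MB. There were 4 libraries, 1 for each combination of genotype and sex. The SG genotype (fSMO-M2;hGFAPcre) carries a floxed SMO-M2, an activated form of the hedgehog transducer Smoothened, and hGFAPcre, in which the promoter of human GFAP drives Cre in neural progenitors. The YSG genotype (fYap1;fSMO-M2;hGFAPcre) has these alleles and floxed Yap1 as well, so both genotypes share SMO-M2 and the Cre. The design text calls the Yap1 animals rescued and places all animals at end point. The labels used here do not give ages or how many animals made up each library.

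MYC family proteins are transcription factors that bind DNA as heterodimers with MAX, at the E-box CACGTG and related sites, and activate genes of ribosome biogenesis, metabolism and growth. The MXD proteins (MXD1, MXD3 and MXD4), MXI1 and MNT also pair with MAX and bind the same sites, but bring SIN3 and histone deacetylases and repress. MLX is a partner of MXD1, MXD4 and MNT and of the glucose-responsive Mondo proteins, and so joins this network to a parallel one. In cerebellar granule neuron precursors, hedgehog signalling is known to raise Mycn, and Mycn to sustain their proliferation.

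Kept barcodes had at least 500 UMIs, at least 300 genes and at most 20% mitochondrial UMIs, which left 7193 to 8419 barcodes and 58308739 to 86810253 UMIs per library, and any pair of libraries shared 10 to 21 barcode sequences. Cycling barcodes held at least 2 UMIs of Mki67 and Top2a together (2173 to 3455 per library). Early barcodes held at least 2 UMIs of Cntn2 and Robo3, genes of newly postmitotic granule neurons, and fewer than 2 of Grin2b and Kcna1 (1149 to 1610), and the reverse defined maturing barcodes (32 to 153). Between 146 and 445 barcodes passed both neuronal gates, 2804 to 3372 passed none, and 0 to 8 were neutrophil-like by at least 5 UMIs of S100a8. Independent markers fitted the cycling and early names: the summed level of 13 proliferation genes was 2287 to 2600 UMIs per 1000000 UMIs of the same sum (CPM) in cycling and 209 to 280 in early barcodes, and that of 7 early neuronal genes was 2515 to 3260 in early and 985 to 1541 in cycling barcodes. They went against the maturing name, since 10 genes of maturing neurons summed to 1096 to 1446 CPM there and to 1202 to 1422 CPM in early barcodes, while 7 oligodendrocyte genes summed to 813 to 10898 CPM in maturing and to 37.96 to 102.1 CPM in cycling barcodes. That group is therefore called Grin2b/Kcna1-gated from here on. Cycling barcodes were deeper (median 9145 to 12606 UMIs) than early ones (5043 to 5857). Where 4 values are given in library order, they are for males of SG, males of YSG, females of SG and females of YSG. Yap1, the floxed gene, was at 3.64 CPM in SG males, 4.31 in SG females, 0.164 in YSG males and 0.0515 in YSG females over all kept barcodes.

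**Figure D1:**
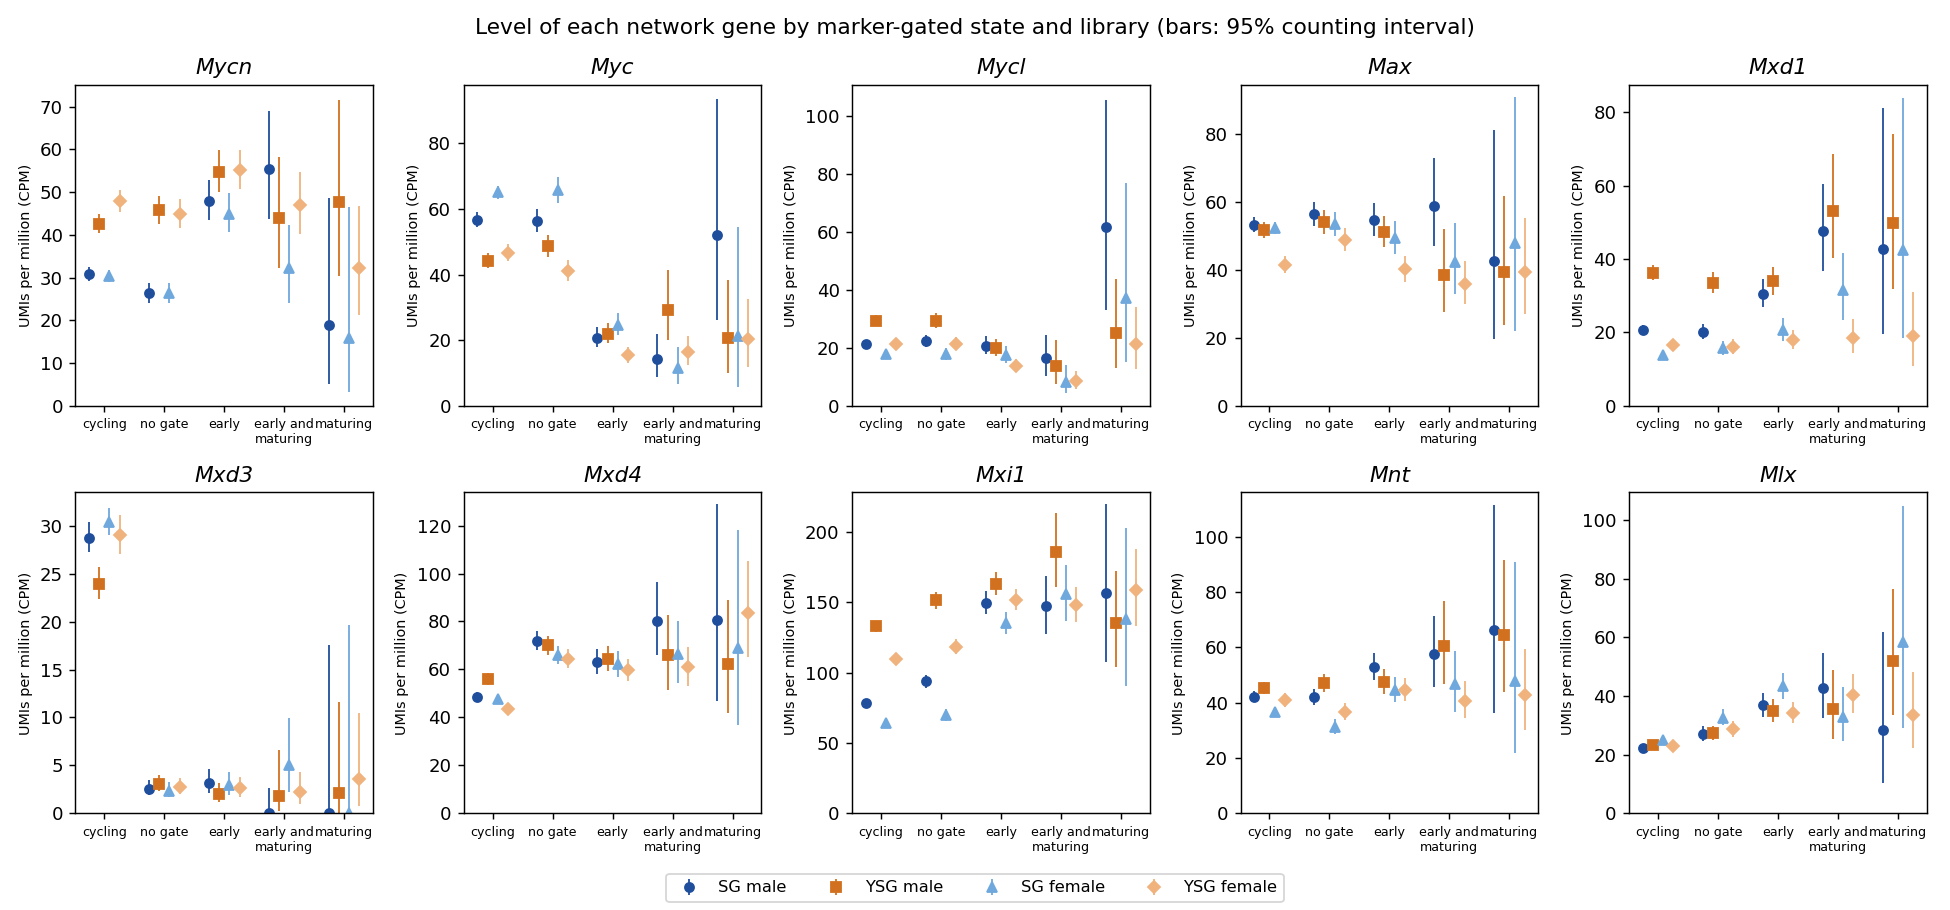
Level of each of the 10 genes (vertical axes, CPM, each from 0) in 5 barcode groups and 4 libraries; points are libraries and bars are 95% counting intervals. Mxd3 was at 24.0 to 30.4 CPM in cycling barcodes and at 2.05 to 3.20 CPM in early ones, and the intervals widen in the Grin2b/Kcna1-gated group, which held 32 to 153 barcodes per library.

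Between cycling and early barcodes, 7 of the 10 members passed the test described below (edgeR adjusted p under 0.05). Mycn, Mxd4, Mxi1 and Mlx were higher in early barcodes, and Myc, Mycl and Mxd3 were lower, each in 4 of 4 libraries. These are 4 and 3 of 10 members, where 30.1% of 12973 genes were called higher and 30.6% lower, so the number of members called lay near the share of all genes called. The test was edgeR's quasi-likelihood test on sums per library with library as a block and Benjamini-Hochberg adjustment over all genes, in which the libraries, of different genotype and sex, are the replicates. With library size factors of 1 in place of TMM factors, the share of all called genes that were higher in early barcodes was 60.7%, against 49.6%, and the median gene lay 0.10 log2 higher. The 7 calls were made with these factors too.

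Gene positions are given on mm10. Among the activators, Myc (ENSMUSG00000022346, chr15:61985391-61990374, plus strand) had the larger fall. In cycling barcodes it was at 56.7, 44.2, 65.0 and 46.6 CPM in library order. In early barcodes the values were 20.8, 22.0, 24.7 and 15.5 CPM. Every early value lay below every cycling one, and the change was -1.45 (log2; SE 0.10, adjusted p = 7.53e-10).

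Mycn (ENSMUSG00000037169, chr12:12936093-12941914, minus strand) moved the other way, from 30.9, 42.6, 30.4 and 47.9 CPM in cycling barcodes, in library order, to 48.0, 54.8, 45.0 and 55.2 CPM in early ones. The change was 0.34 (log2; SE 0.08, adjusted p = 0.00163). The states overlapped across libraries, since the cycling value of the YSG females lay above the early value of the SG females, but each library was higher in its early barcodes. Without the library block, which leaves the genotype difference in the spread, the adjusted p was 0.207.

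The Mycn promoter is shown because it held a pair of matches to an E2F motif. RefSeq windows of 250 bases before the annotated start were given for 9 members (11 windows, build GRCm38.p6), and 5 motifs were searched on both strands: the E-box CACGTG, the E2F sequences TTTGGCGC or TTTCCCGC, the cell cycle homology region TTTGAA, the TEAD sequence GGAATG and the GLI sequence GACCACCCA. Myc had no window and was not searched. The motifs were chosen after the start of the members' promoter sequences had been seen. The E2F motif was in 1.3% of 32851 windows of this length, and in the Mycn window it started 183 and 168 bases before the RefSeq start. Mycn also held 1 match to TTTGAA, found in 16.0% of windows, in the part nearest the start that is not printed. CACGTG, in 6.02% of all windows, was found once each in the windows of Mxd4, Mnt and Mlx, at 219, 123 and 40 bases before the start. No member's window held GGAATG, in 12.6% of windows, or GACCACCCA, in 0.225%. The bases lying before both the RefSeq and the GENCODE start are printed 5′ to 3′ on the gene's strand, with motif matches in capitals: for Mycn chr12:12941915-12942086 (minus strand), Mxd4 chr5:34187721-34187960 (minus strand), Mnt chr11:74830674-74830919 (plus strand) and Mlx chr11:101087040-101087276 (plus strand).
Mycn: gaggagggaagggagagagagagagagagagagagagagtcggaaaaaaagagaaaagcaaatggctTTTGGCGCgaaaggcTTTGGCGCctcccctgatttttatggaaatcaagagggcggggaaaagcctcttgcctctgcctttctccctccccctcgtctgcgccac
Mxd4: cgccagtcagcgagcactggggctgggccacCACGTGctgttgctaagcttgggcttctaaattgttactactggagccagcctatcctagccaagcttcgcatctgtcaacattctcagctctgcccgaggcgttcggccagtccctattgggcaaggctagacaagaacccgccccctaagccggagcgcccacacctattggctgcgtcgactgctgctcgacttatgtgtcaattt
Mnt: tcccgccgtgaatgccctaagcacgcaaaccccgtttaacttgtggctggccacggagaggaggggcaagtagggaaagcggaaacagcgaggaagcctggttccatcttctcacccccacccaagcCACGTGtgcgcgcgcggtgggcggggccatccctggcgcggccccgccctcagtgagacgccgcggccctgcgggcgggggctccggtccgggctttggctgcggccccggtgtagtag
Mlx: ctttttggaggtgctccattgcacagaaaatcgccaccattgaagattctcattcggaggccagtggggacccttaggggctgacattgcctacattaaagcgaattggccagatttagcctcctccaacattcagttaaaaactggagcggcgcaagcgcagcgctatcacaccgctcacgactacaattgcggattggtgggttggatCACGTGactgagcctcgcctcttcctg
A match is a description of these letters and says nothing of binding in these cells.

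Mycl (ENSMUSG00000028654, chr4:122995652-123002485, plus strand), the remaining activator, was at 21.4, 29.3, 18.0 and 21.4 CPM in cycling barcodes, in library order, and at 20.7, 19.9, 17.5 and 13.7 CPM in early ones. The change was -0.42 (log2; SE 0.12, adjusted p = 0.00619). Within libraries it came to -0.05 in SG males and -0.04 in SG females, against -0.56 in YSG males and -0.65 in YSG females, so the fall was carried by the YSG libraries, and the difference between genotypes was not tested. The call was lost without the YSG females (-0.31, adjusted p = 0.0592), with DESeq2 (adjusted p = 0.0597), without the library block (adjusted p = 0.143) and with gates at 1 UMI (-0.19, adjusted p = 0.0917).

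Max (ENSMUSG00000059436, chr12:76937269-76962201, minus strand), the common partner, was at 53.3, 51.7, 52.3 and 41.5 CPM in cycling barcodes, in library order, and at 54.7, 51.2, 49.3 and 40.2 CPM in early ones. Its difference of -0.12 (log2; SE 0.06) did not pass the test (edgeR adjusted p = 0.0970). In both states the YSG females had the lowest value.

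Among the repressors, Mxd3 (ENSMUSG00000021485, chr13:55325168-55329823, minus strand), known as the member of the family made in dividing cells, fell most. It was at 28.8, 24.0, 30.4 and 29.0 CPM in cycling barcodes, in library order, from 779 to 1804 UMIs. In early barcodes it was at 3.20, 2.05, 2.93 and 2.64 CPM, from 19 to 28 UMIs. The states were far apart in every library, with a change of -3.47 (log2; SE 0.12, adjusted p = 1.28e-13). After each barcode was thinned to 2000 UMIs, which left out 40 to 79 shallower barcodes per state and library, 4.81 to 6.56% of cycling and 0.420 to 0.821% of early barcodes held a Mxd3 UMI. Before thinning the shares were 21.9 to 34.8% and 1.29 to 2.18%.

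Mxi1 (ENSMUSG00000025025, chr19:53310518-53375810, plus strand), a repressor of the MXD group, was at 78.6 CPM in SG males and 64.3 in SG females in cycling barcodes, against 132.9 in YSG males and 109.8 in YSG females. In early barcodes the values were 149.5, 163.1, 135.2 and 151.8 CPM in library order. The early values all lay above the cycling ones, with a change of 0.59 (log2; SE 0.10, adjusted p = 7.56e-05). Within libraries the difference was 0.93 in SG males and 1.07 in SG females, and 0.29 in YSG males and 0.47 in YSG females. The SG and YSG values did not overlap, and this difference was not tested. In thinned barcodes, 10.5 to 22.7% of cycling and 23.9 to 27.2% of early ones held a Mxi1 UMI, and before thinning 52.0 to 66.8% and 53.6 to 56.8%.

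Mxd4 (ENSMUSG00000037235, chr5:34173883-34187720, minus strand), a repressor known from differentiating cells, was at 48.4, 56.1, 47.5 and 43.5 CPM in cycling and at 63.2, 64.2, 62.2 and 59.7 CPM in early barcodes, in library order. The early values all exceeded the cycling ones, with a change of 0.26 (log2; SE 0.07, adjusted p = 0.00531), which had an adjusted p of 0.0829 without the library block. Mlx (ENSMUSG00000017801, chr11:101087277-101092207, plus strand) was at 22.4, 23.2, 25.1 and 23.0 CPM in cycling and at 36.9, 35.0, 43.4 and 34.4 CPM in early barcodes, in the same order. Here too no value overlapped, and the change was 0.58 (log2; SE 0.08, adjusted p = 8.18e-06).

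Mxd1 and Mnt did not pass the test. Mxd1 (ENSMUSG00000001156, chr6:86647042-86669161, minus strand), a repressor induced in terminally differentiating myeloid and epithelial cells, was at 20.7, 36.3, 13.9 and 16.7 CPM in cycling and 30.6, 34.0, 20.6 and 17.9 CPM in early barcodes, in library order (0.18 log2, SE 0.11, edgeR adjusted p = 0.165). It was higher in early barcodes in 3 of 4 libraries. Without the YSG males, the exception, the difference was 0.32 with an edgeR adjusted p of 0.0267. Leaving out the library that went the other way raises the difference by itself, so this value adds no support. The difference lay at -0.06 without high-UMI barcodes and at -0.05 without barcodes with marker UMIs of other cell types. That last setting dropped, whatever their depth, barcodes with at least 3 UMIs of a marker list of another cell type. It left 872 to 1283 of 2173 to 3455 cycling barcodes per library, with a median of 6915 to 8309 UMIs against 9145 to 12606 before. Of 1149 to 1610 early barcodes it left 598 to 895. Astroglial genes summed to 340 to 511 CPM in cycling barcodes, so a deep barcode of any type could be dropped. The same setting is meant below wherever other cell types are left out, and a barcode it dropped need not be of another type. Mnt (ENSMUSG00000000282, chr11:74830920-74845725, plus strand), a broadly expressed repressor, was at 36.5 to 45.3 CPM in cycling and 44.5 to 52.9 CPM in early barcodes (0.11 log2, SE 0.07, edgeR adjusted p = 0.198). Its level was higher in early barcodes in 4 of 4 libraries. With library size factors of 1 in place of TMM factors, Mxd1 and Mnt were called higher in early barcodes, with adjusted p-values of 0.0389 and 0.0199.

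Exons of 4 members overlap a gene on the opposite strand in the annotation, and the labels used here do not say whether reads were counted by strand. Prelid1, beside Mxd3, was at 128 to 134 CPM in cycling and 133 to 147 CPM in early barcodes. Psmc3ip, beside Mlx, was at 31.5 to 51.3 CPM in cycling and 11.9 to 36.6 CPM in early barcodes, the opposite direction to Mlx. Gm42846, beside Mxd4, and Gm10197, beside Mxi1, stayed at or below 0.114 and 0.540 CPM in both states.

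**Figure D2:**
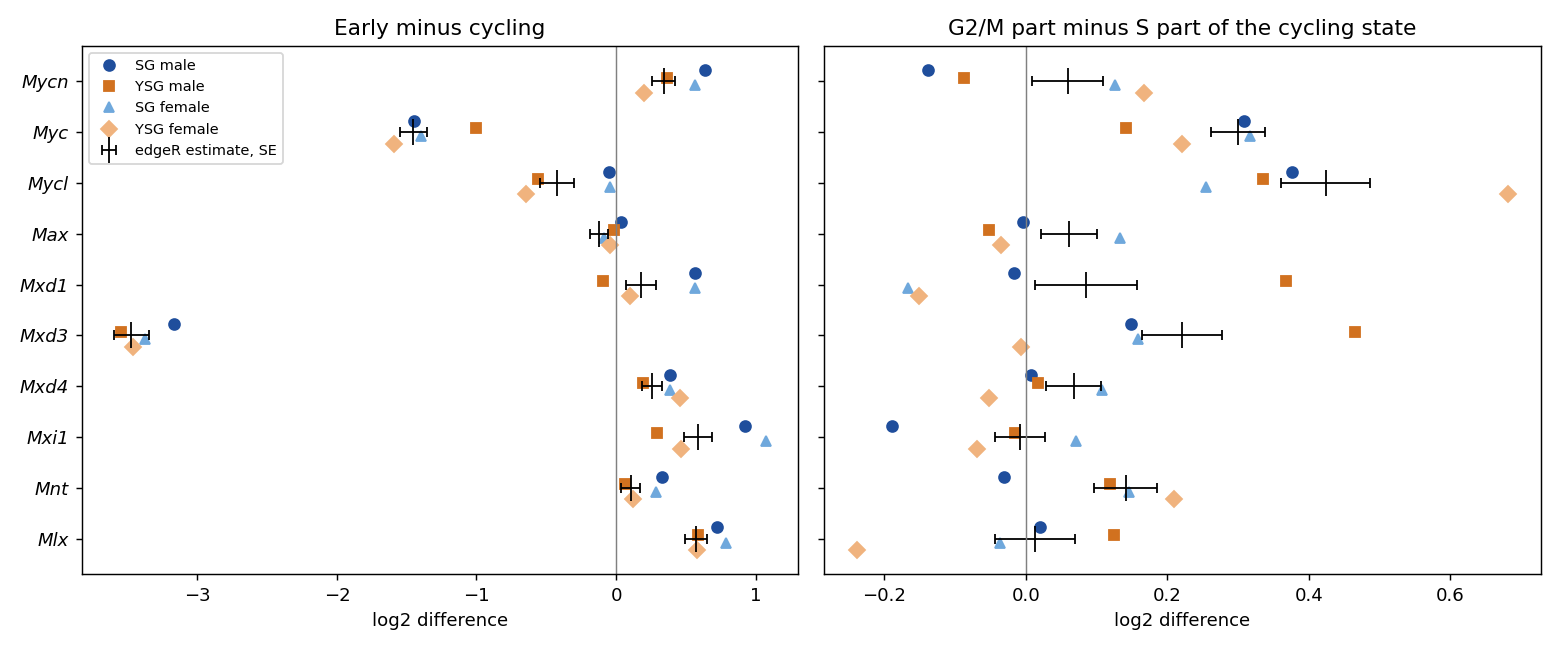
Differences in level (horizontal axes, log2) for each gene between early and cycling barcodes (left) and between the G2/M and S parts of the cycling state (right); coloured points are libraries, computed from CPM, and black marks are the edgeR estimates with their standard error. On the left Mxd3 lies at -3.47 and Myc at -1.45, and the SG libraries lie right of the YSG libraries for Mxi1.

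The cycling state was then divided into an S part and a G2/M part, according to which of the phase gene lists had more UMIs in a barcode. Myc, Mycl, Mxd3 and Mnt were higher in the G2/M part and no member was lower, where 16.5% of 13633 genes were called higher and 14.6% lower. Myc was at 51.1, 42.2, 58.0 and 43.2 CPM in the S part and at 63.2, 46.5, 72.2 and 50.3 CPM in the G2/M part, in library order, higher in 4 of 4 libraries (0.30 log2, SE 0.04, adjusted p = 1.14e-06). Mycl, also higher in 4 of 4, was at 18.6, 26.0, 16.4 and 16.6 CPM and then 24.1, 32.8, 19.5 and 26.7 CPM (0.42 log2, SE 0.06, adjusted p = 9.72e-06). Mxd3 was higher in 3 of 4 libraries (0.22 log2, SE 0.06, adjusted p = 0.00389), with 20.4 to 29.3 CPM in the S part and 28.2 to 32.2 CPM in the G2/M part, and Mnt in 3 of 4 (0.14 log2, SE 0.04, adjusted p = 0.0178). The Mnt call was lost without SG females (edgeR adjusted p = 0.105), without YSG females (0.106) and with library size factors of 1 (0.0850). Without the library block none of the 4 passed (adjusted p of 0.548 to 0.832), and with library size factors of 1 the share of all called genes that were higher in G2/M was 36.7%, against 53.1%.

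Barcodes that passed no gate were compared with cycling ones in a contrast added after their levels had been seen. Mxd4, Mxi1 and Mlx were higher and Mycn, Mxd3 and Mnt lower, where 27.8% of 14170 genes were called higher and 26.3% lower. Mxd3 was at 2.59, 3.07, 2.38 and 2.76 CPM in these barcodes, in library order, close to its early level (-3.44 log2, SE 0.09, higher in 0 of 4 libraries). Mycn (-0.16 log2, SE 0.05, edgeR adjusted p = 0.0219) and Mnt (-0.14, SE 0.05, adjusted p = 0.0289) were each lower in 3 of 4 libraries, with the YSG males as the exception. Both calls were lost without SG females (adjusted p = 0.0835 for Mycn and 0.128 for Mnt), that of Mycn also without SG males (0.128) and that of Mnt without YSG females (0.0819). The Mxi1 call was lost without SG males (0.124) and without YSG males (0.0809). Myc was at 56.3, 48.7, 65.7 and 41.2 CPM, and its difference from cycling barcodes, -0.06 (log2; SE 0.05), did not pass the test (edgeR adjusted p = 0.251). This value turned on the setting: Myc was called lower with gates at 3 UMIs (-0.23, adjusted p = 0.00244) and without the YSG males (-0.12, adjusted p = 0.0346), and higher with gates at 1 UMI (0.17, adjusted p = 0.0151). The share of all called genes that were higher was 51.3%, and 64.5% with library size factors of 1, where Mycn and Mnt were no longer called. These barcodes kept 330 to 383 CPM of the 13 proliferation genes, against 209 to 280 in early ones. They had 559 to 1024 CPM of 8 astroglial genes, against 340 to 511 in cycling ones. A list of 7 progenitor genes, such as Atoh1 and Gli1, summed to 597 to 815 CPM, against 549 to 801 in cycling and 401 to 583 in early barcodes. The part of any of these in the values above was not tested.

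In the Grin2b/Kcna1-gated barcodes members had 0 to 133 UMIs per library. Compared with cycling barcodes, Mxd4 (0.49 log2, SE 0.15, edgeR adjusted p = 0.0154) and Mlx (0.70, SE 0.18, adjusted p = 0.00711) were higher and Myc (-1.14, SE 0.23, adjusted p = 0.000861) and Mxd3 (-3.71, SE 0.40, adjusted p = 1.66e-06) were lower, where 13.6% of 12973 genes were called higher and 17.6% lower. With library size factors of 1 the share of calls that were higher was 60.5%, against 43.6%, and the median gene lay 0.14 log2 higher. Mxd3 had 0 UMIs in both SG libraries, 1 in YSG males and 3 in YSG females. Myc was uneven, at 52.2 CPM from 11 UMIs in SG males and at 20.3 to 21.3 CPM in the other 3 libraries. Astroglial genes summed to 3877 CPM in SG males and to 564 to 761 CPM in the others. Leaving out barcodes with at least 3 UMIs of a marker list of another cell type left 17 to 93. The Mxd4, Mlx, Myc and Mxd3 differences were then 0.67, 0.90, -0.97 and -3.86, each still past the threshold. The Mxd4 call was lost without YSG females (0.26, edgeR adjusted p = 0.413) and without SG males (adjusted p = 0.0612), and that of Mlx without YSG males (adjusted p = 0.0828). With gates at 1 UMI the calls of Mlx (0.31, adjusted p = 0.290) and Myc (-0.49, adjusted p = 0.0791) were lost.

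Against early barcodes only Mycn was called, lower at -0.78 (log2; SE 0.20, edgeR adjusted p = 0.0241), where 2.74% of genes were called lower and 4.05% higher. It had 4, 23, 3 and 27 UMIs in library order. The call was lost without barcodes with marker UMIs of other cell types (-0.42, edgeR adjusted p = 0.530), which need not be of another type. It was also lost without SG males (adjusted p = 0.0792), without SG females (0.0772) and without YSG females (0.168). With library size factors of 1 the share of calls that were higher was 71.3%, against 59.5%. In the larger group that passed both neuronal gates, Mycn was at 55.4, 43.9, 32.2 and 47.1 CPM and Mxi1 at 146.9, 185.6, 155.5 and 148.0 CPM, in the same order.

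YSG was compared with SG in each sex, which asks how the network differs where Yap1 was floxed. Each genotype had 1 library per sex, so no test was made: folds are ratios of CPM, their 95% intervals cover counting error only, and a change in the animals cannot be told apart from a difference between libraries. In cycling barcodes Mxi1 was the only member at least 1.5-fold apart in both sexes, where 6.64% of 14722 genes were that much higher in both and 6.12% lower. It was 1.69-fold higher in YSG males (1.62 to 1.77) and 1.71-fold higher in YSG females (1.63 to 1.79). In early barcodes its folds were 1.09 (1.01 to 1.18) and 1.12 (1.04 to 1.21), and no member reached 1.5-fold in both sexes, where 4.15% of 12299 genes were higher and 3.23% lower. In barcodes of no gate, added after the values were seen, Mxi1 was 1.61-fold (1.52 to 1.72) and 1.69-fold (1.57 to 1.82) higher. The difference between the states' folds was not tested. The cycling gate did not hold the same mix in both genotypes. There the 7 early neuronal genes summed to 1019 and 985 CPM in SG males and females, and to 1434 and 1541 CPM in YSG ones. The 7 progenitor genes summed to 702 and 801 CPM in SG males and females, and to 583 and 549 CPM in YSG ones. The part of this difference in the folds of Mxi1 and of the members below was not tested.

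Mycn lay in the same direction. In cycling barcodes it was 1.38-fold higher in YSG males (1.28 to 1.49) and 1.58-fold higher in YSG females (1.47 to 1.69). In early barcodes the folds were 1.14 (1.001 to 1.30) and 1.23 (1.08 to 1.40). In barcodes of no gate they were 1.74 (1.55 to 1.96) and 1.71 (1.52 to 1.92), so that Mycn and Mxi1 both passed 1.5-fold there, where 6.16% of 13632 genes were higher and 6.03% lower.

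Myc lay the other way in cycling barcodes, at 0.779 of the SG level in males (0.730 to 0.831) and 0.717 in females (0.672 to 0.765). In early barcodes the sexes differed, with 1.06 (0.864 to 1.30) in males and 0.625 (0.506 to 0.770) in females. In cycling barcodes the levels of Mycn in both YSG libraries thus lay above, and those of Myc below, both SG libraries. Pim1, a kinase that acts on MYC and 1 of 8 genes listed for MYC stability, was at 0.464 of the SG level in cycling barcodes of males (0.443 to 0.485) and at 0.425 in females (0.404 to 0.447). It was the only gene of that list past 1.5-fold in both sexes, where 6.12% of 14722 genes were that much lower in both. Pim1 was named after its values were seen, and a link with the Myc level was not tested.

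**Figure D3:**
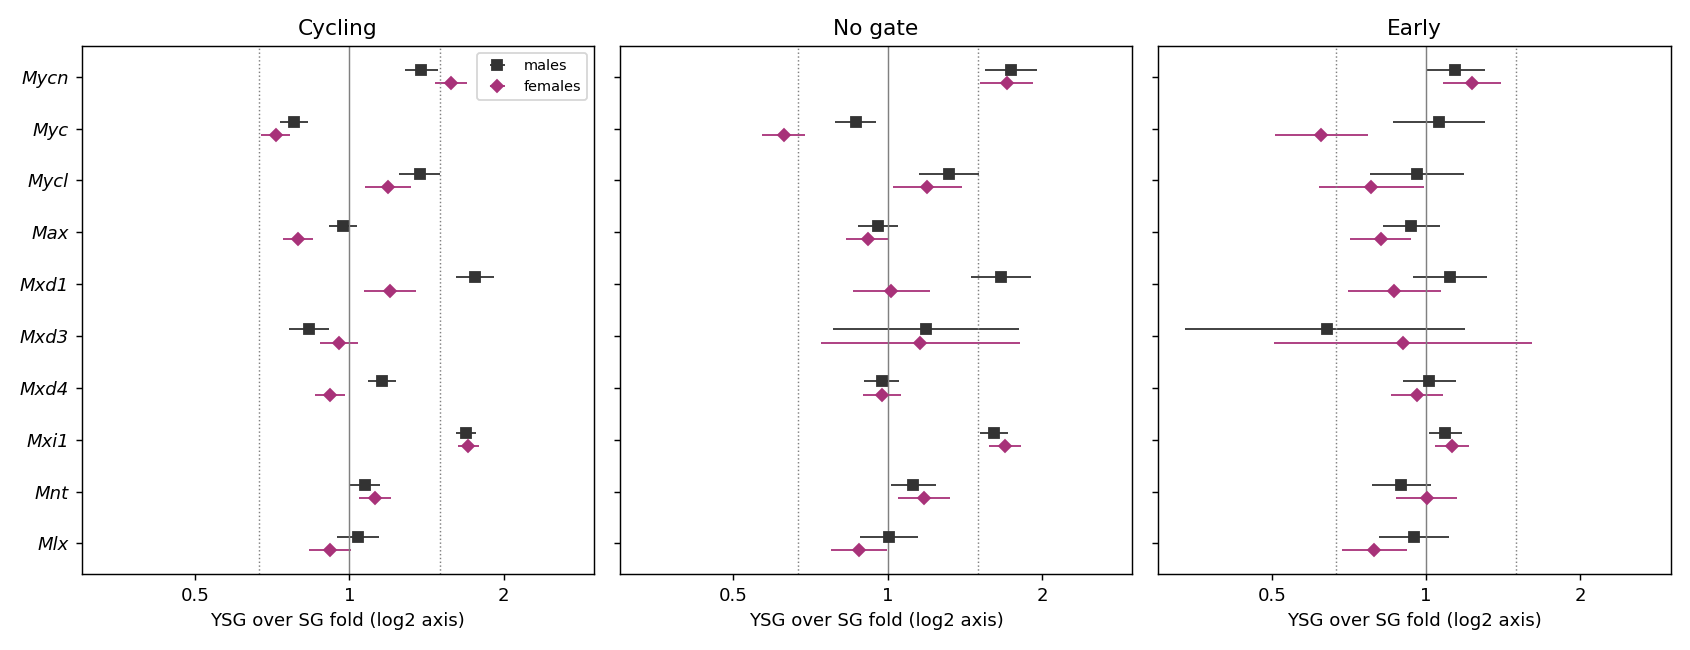
YSG over SG fold of each gene (horizontal axes, log2 scale) in cycling barcodes, barcodes of no gate and early barcodes, in males and females; bars are 95% counting intervals and dotted lines mark 1.5-fold either way. Mxi1 lies at 1.69 and 1.71 in cycling and at 1.09 and 1.12 in early barcodes.

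The other members were nearer to 1 or uneven between the sexes in cycling barcodes. Mycl was 1.37-fold higher in YSG males, from 970 and 962 UMIs, and 1.19-fold higher in YSG females (1.07 to 1.32). Mxd1 was 1.76-fold (1.61 to 1.92) and 1.20-fold (1.07 to 1.35) higher, and the YSG males were the library with the highest level. Max was at 0.970 (0.911 to 1.03) and 0.794 (0.741 to 0.851) of the SG level, and Mxd3 at 0.833 (0.762 to 0.911) and 0.953 (0.875 to 1.04). Mnt (1.07 and 1.12) and Mlx (1.04 and 0.915) were close to equal. Over all kept barcodes Mxi1 alone passed 1.5-fold in both sexes, at 1.56 (1.51 to 1.61) and 1.66 (1.60 to 1.71), where 7.48% of 15969 genes were higher and 6.39% lower. Mxd3 over all barcodes was at 0.762 (0.699 to 0.830) and 0.684 (0.630 to 0.742). Cycling barcodes were 41.0% and 45.0% of SG male and female barcodes and 36.4% and 30.2% of YSG ones. In the Grin2b/Kcna1-gated barcodes Mycn passed 1.5-fold higher and Mycl lower in both sexes of 9 members with at least 20 UMIs in each pair, where 3.68% of 5732 genes were higher and 3.51% lower, but neither passed with the gates at 3 UMIs.

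Between the sexes no member passed 1.5-fold in both genotypes in cycling barcodes, where 0.433% of 14308 genes were higher in males and 1.08% lower, nor over all barcodes, where 0.533% of 15752 genes were higher and 1.54% lower. Mxd1 came nearest in cycling barcodes, 1.48-fold higher in SG males than in SG females (1.35 to 1.63) and 2.18-fold higher in YSG males than in YSG females (1.95 to 2.43). In early barcodes its folds were 1.48 (1.22 to 1.80) and 1.90 (1.58 to 2.29). The sexes were 1 library each within a genotype, so a sex difference cannot be told apart from a difference between libraries.

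Mxd1 had its highest level in the barcodes gated as neutrophil-like. There were 0 such barcodes in SG males, 5 in YSG males, 1 in SG females and 8 in YSG females. In YSG males, Mxd1 had 9 UMIs in these 5 barcodes, 877 CPM against 35.6 CPM in all other barcodes, a ratio of 24.6 (11.3 to 46.9). In YSG females it had 25 UMIs in 8 barcodes, 1764 CPM against 16.9 CPM, a ratio of 105 (67.3 to 155). The single SG female barcode had 1 UMI, and its markers went against the name, with 30 UMIs of 6 endothelial genes against 22 of 11 neutrophil genes, 7 of them at 0. A Mxd1 UMI was present in 4 of 5, 5 of 8 and 1 of 1 of these barcodes, and the other 9 members had 0 to 2 UMIs each per library. Median depth was 967 UMIs in YSG males, against 5872.5 over all kept barcodes of that library. The 11 neutrophil genes had 173 UMIs in YSG males and 268 in YSG females, where the endothelial genes had 0, and Csf3r, the receptor for granulocyte colony-stimulating factor, had 7 UMIs in YSG males, 1 in the SG female barcode and 12 in YSG females. Most of the neutrophil UMIs were of S100a9 alone, with 158 in YSG males, 212 in YSG females and 18 in the SG female barcode. Of the 11 genes, 6 were at 0 in YSG males and 1 in YSG females. The sums also held RNA of other cells. The 7 early neuronal genes had 15 UMIs (1462 CPM) in YSG males and 7 (494 CPM) in YSG females. The 8 astroglial genes had 5 UMIs (487 CPM) in YSG males and 17 (1200 CPM) in YSG females. The 13 proliferation genes had 1 UMI in each. The part of such RNA in the Mxd1 values was not tested. The 9 microglia and macrophage genes summed to 7698, 1385 and 8399 CPM in these barcodes of YSG males, SG females and YSG females (79, 7 and 119 UMIs, with 5 to 7 of 9 genes at 0), against 1.53 to 11.8 CPM in cycling barcodes. C1qa was at 0 in each, and most of these UMIs were of Tyrobp, Fcer1g and Ptprc, which neutrophils are known to make too; the part of other myeloid cells in the Mxd1 values was not tested. These barcodes were too few to compare genotypes. With the S100a8 gate at 20 UMIs, 159 CPM from 1 barcode was left in YSG males. That barcode held 6292 of the 10263 UMIs of the YSG male sum.

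**Figure D4:**
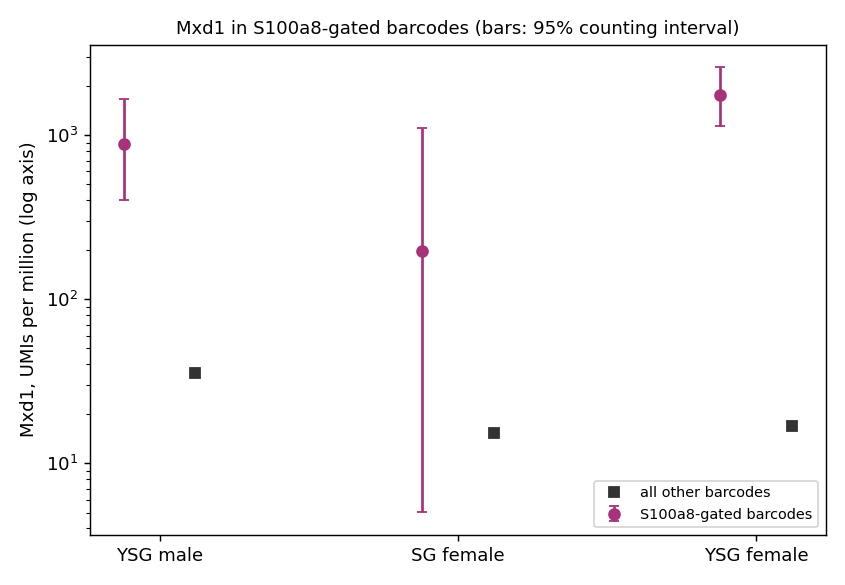
Mxd1 level (vertical axis, CPM, log scale) in barcodes gated on S100a8 (circles, with 95% counting intervals) and in all other kept barcodes (squares) of the 3 libraries with such barcodes. The circles lie at 877, 198 and 1764 CPM in YSG males, SG females and YSG females, and the squares at 35.6, 15.3 and 16.9 CPM; the SG female circle is 1 barcode with more endothelial than neutrophil UMIs.

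Genes around the network were read as lists, which were chosen with earlier results of these data known. The shares of all genes beside them are a description, not a test of a list. Of 30 MYC target genes, chiefly of ribosome biogenesis and growth, 24 were lower in early than in cycling barcodes and 0 higher (edgeR, adjusted p under 0.05), with a median of -0.44 log2 against 0.01 for all genes tested, of which 30.6% were lower and 30.1% higher. In the Grin2b/Kcna1-gated barcodes 21 were lower and 0 higher than in cycling ones, with a median of -0.59 against -0.04, where 17.6% of all genes were lower and 13.6% higher. Cad, which starts pyrimidine synthesis (-2.05, SE 0.39, adjusted p = 0.000566), and the nucleolar proteins Nop56 (-1.08, SE 0.11, adjusted p = 6.89e-07) and Nop58 (-1.01, SE 0.08, adjusted p = 2.86e-08) had the largest differences there. In barcodes of no gate, where 27.8% of all genes were called higher and 26.3% lower, 5 of the 30 were higher and 10 lower than in cycling barcodes, with a median of -0.0031 against 0.03. In the cycling state the median YSG over SG difference of the 30 was -0.09 log2 in males and -0.19 in females, against 0.005 and 0.008 for all genes. In early barcodes it was 0.04 in males and -0.27 in females, against -0.002 and -0.015.

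Of 13 cofactors, the SIN3 and deacetylase corepressors of the MXD proteins and the acetyltransferase and RUVBL complexes used by MYC, 6 were lower and 1 higher in early barcodes, with a median of -0.13 against 0.01, beside the same 30.6% and 30.1% of all genes. In the Grin2b/Kcna1-gated barcodes 5 were lower and 0 higher than in cycling ones (median -0.30 against -0.04, beside 17.6% and 13.6% of all genes), led by the ATPases Ruvbl2 (-1.26, SE 0.20, edgeR adjusted p = 0.000103) and Ruvbl1 (-0.91, SE 0.13, adjusted p = 3.03e-05) and by the corepressor Sin3a (-0.72, SE 0.18, adjusted p = 0.00466). Of the 8 genes for MYC stability, 4 were lower and 1 higher in early barcodes (median -0.22 against 0.01, beside 30.6% and 30.1% of all genes). The mitotic kinases Plk1 (-4.28, SE 0.42, adjusted p = 6.46e-07) and Aurka (-4.11, SE 0.37, adjusted p = 2.11e-07) and Pim1 (-1.26, SE 0.17, adjusted p = 1.82e-05) led it in the Grin2b/Kcna1-gated barcodes. Of the remaining network genes, Mga, a MAX partner, and Mlxip, the Mondo partner of MLX, were tested and neither was called between early and cycling barcodes, while Mlxipl did not pass the filter on low counts. The Mondo and MLX targets Txnip and Arrdc4 went apart there, with 1 lower and 1 higher.

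Across the 12 sums of 3 states and 4 libraries, the genes with patterns most like those of Mycn, Mxd3 and Mxd4 were ranked among 6881 genes by Pearson's r of log2(CPM + 1), as a description, since the sums share libraries and states. For Mxd3 they were Ckap2l, Ect2, Kif4, Ccna2 and Lin9 (r of 0.988 to 0.997). For Mycn they were Coil, Ccnd2, Frrs1l, Smarce1 and Satb1 (0.930 to 0.959), of which Ccnd2 encodes cyclin D2, and for Mxd4 Ppm1a, Gdap2, Dcun1d3, Plpbp and Phactr1 (0.937 to 0.949).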

How the data were processed

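Libraries were made from dissociated fresh tumour with the 10x Genomics 3' kit V3 and read on DNBseq, per the labels' protocols. The deposited values are UMI counts per gene and barcode, not normalized, made by the authors with Cell Ranger 5.0.1, per the file headers, and on mm10, per the submitters' processing notes. Gene positions came from GENCODE M21.

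Deposited barcodes numbered 7289 to 8505 per library, with 58478914 to 86906706 UMIs. Barcodes were filtered and gated as the report states, in the order neutrophil-like, cycling, then neuronal gates. No doublet caller was run, and leaving out barcodes above 2.5 times their library's median UMIs was an alternative. Counts were summed per library and state and fitted with edgeR 4.0.16 (R 4.3.3; TMM factors, filterByExpr, library block, glmQLFit and glmQLFTest, 3 states in 1 fit), with Benjamini-Hochberg adjustment over all genes and a threshold of 0.05. On simulated sums for the Grin2b/Kcna1-gated against cycling comparison over 12817 genes, the fit recovered 37% of 100 genes changed by 1 log2 unit and 85% of 100 changed by 2, with 5 false calls. The simulation set the same dispersion for every gene. It changed only genes above a minimum of UMIs, as many up as down. The false calls there do not measure the error of the real comparison. Per-library log2 differences were computed from CPM. Genotype and sex folds were counted over genes with at least 20 UMIs in the 2 libraries. Intervals are exact (Poisson for CPM, conditional binomial for folds), at 95%, and cover counting error only. DESeq2 1.42.0, other scalings, filters, gates and left-out libraries were the alternatives. All 10 members were named, with the 5 genes of most similar pattern for Mycn, Mxd3 and Mxd4, and at most 3 called genes of each list with the largest change between Grin2b/Kcna1-gated and cycling barcodes; Pim1 in the genotype comparison and the genes that overlap members were named after their values were seen. The members and lists were chosen with earlier results of these data known.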

Additional observations from a re-analysis of the deposited data

Results flagged for a closer look

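Of 48 sets of 4 libraries' differences examined, 2 had a library far from the others, and chance gives about 1 in 20. For Mxi1, the difference between Grin2b/Kcna1-gated and early barcodes was -0.27 (log2) in YSG males and 0.03 to 0.07 in the other 3 libraries. For Mycl, the difference between barcodes of no gate and cycling ones was 0.0572 in SG males and -0.01 to 0.00 in the others. Mxd4 in cycling barcodes lay on either side of 1 in the sexes, with a YSG over SG fold of 1.16 in males and 0.917 in females, and this difference was not tested.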

How the results depend on the processing

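Of 630 recomputed differences of single members between states, 523 kept their direction and side of the threshold, 44 lost and 26 gained a call and 37 changed sign, and the Myc, Mxd3, Mxi1 and Mlx calls between early and cycling barcodes held in all 15 alternatives (adjusted p at most 0.0335). In these alternatives, after thinning means that the cycling and neuronal gates were read at 1 UMI on barcodes thinned to 2000 UMIs. The sums themselves kept all UMIs of those barcodes. The sign changes, with the reported log2 difference in brackets, were these. Grin2b/Kcna1-gated against cycling barcodes gave Mycl (0.27) -0.20 with gates at 3 UMIs, -0.70 after thinning, -0.011 without high-UMI barcodes, -0.93 without other cell types, -0.71 with both neuronal gates added and -0.034 to 0.53 with 1 library left out (lowest without SG males), Mxd1 (0.51) -0.054 without other cell types and Mycn (-0.44) 0.045 with both gates added. Early against cycling barcodes gave Mxd1 (0.18) -0.062 without high-UMI barcodes and -0.050 without other cell types. Grin2b/Kcna1-gated against early barcodes gave, with both gates added, Myc (0.31) -0.12, Mycl (0.69) -0.28 and Mxi1 (-0.16) 0.033; with gates at 3 UMIs, Myc -0.65; with gates at 1 UMI, Mnt (0.11) -0.037 and Mlx (0.12) -0.21; after thinning, Mycl -0.32, Mxd3 (-0.24) 0.12, Mnt -0.12 and Mlx -0.12; without other cell types, Mycl -0.34, Mxd1 (0.33) -0.0044, Mxd3 0.037 and Mnt -0.072; and with 1 library left out, Mxd3 -1.26 to 0.027 (highest without SG males), Mnt -0.0098 to 0.25 and Mlx -0.058 to 0.26 (both below 0 without YSG males). G2/M against S gave Mlx (0.01) -0.024 with library size factors of 1 and, with 1 library left out, Mlx -0.032 to 0.051, Mxd1 (0.09) -0.071 to 0.15 and Mxi1 (-0.01) -0.049 to 0.039. Barcodes of no gate against cycling ones gave Myc (-0.06) 0.17 with gates at 1 UMI and 0.0054 without high-UMI barcodes, Mycl (-0.05) 0.013 with library size factors of 1 and 0.00099 with gates at 1 UMI, and Max (0.04) -0.0090 to 0.048 with 1 library left out. Of 640 recomputed genotype ratios 590 moved by less than their interval and 31 changed sign, 30 of them from a ratio under 1.5-fold and 1 from a larger one: Mxd3 in early barcodes of males, at 0.37 (log2) without barcodes of other cell types. The causes were not tested. Without the library block, 2 members were called higher in early than in cycling barcodes, 0 in G2/M and, in barcodes of no gate, 1 higher and 1 lower, and 0 were lower in Grin2b/Kcna1-gated than in early barcodes. Leaving out 1 library gave 1 to 2 members higher and 2 to 3 lower in Grin2b/Kcna1-gated than in cycling barcodes (1 higher without SG males or without YSG females), 0 to 1 lower than in early ones (0 without SG males, SG females or YSG females), and 1 to 4 lower in barcodes of no gate than in cycling ones (1 without SG females). Grin2b/Kcna1-gated against cycling barcodes gave 4 members higher after thinning, 4 higher and 4 lower with both neuronal gates added, and 1 lower with gates at 1 UMI. The Mycn call against early barcodes was also lost (0 lower) with gates at 3 UMIs, after thinning, without other cell types and with both gates added. Barcodes of no gate had 1 member lower with library size factors of 1. With a fold threshold nearer to 1, YSG over SG gave 2 members higher and 1 lower over all barcodes and in cycling ones, and 1 member (Mxd1) was higher in males; with a fold of 2 no member passed (0) over all, cycling or ungated barcodes, and 0 were lower in Grin2b/Kcna1-gated ones. Early barcodes had 1 member lower with gates at 3 UMIs (Mxd3). Genotype counts in the Grin2b/Kcna1-gated group fell to 0 higher and 0 lower with gates at 1 or 3 UMIs, after thinning and without other cell types, and to 0 lower without high-UMI barcodes. Without other cell types 1 member was higher in barcodes of no gate. Mxd1 was higher in males (1) in cycling barcodes with gates at 3 UMIs or TMM factors. Mxd1 in neutrophil-like barcodes of YSG males was at 159 CPM with S100a8 at 20 UMIs. The state comparisons were paired by library through the block, and YSG and SG were not tested as pairs within sex. Depth limits the Grin2b/Kcna1-gated and neutrophil-like values.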
